A study of Mus musculus with 4 samples.

Results

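The primary cilium and intraflagellar transport (IFT) genes examined here are 44 genes that encode the transport trains, motors, BBSome, membrane, transition zone and basal body proteins of the cilium on which mouse hedgehog signalling depends. They were selected by gene symbol, and all 44 were found among the 23107 genes of the deposited tables. The series profiled tdTomato-positive dental follicle cells of mouse mandibular molars, sorted at postnatal day 8 after tamoxifen at postnatal day 3; the labels call these cells PTHrP-positive. The dental follicle is the mesenchymal sheath around a developing tooth. Libraries from Ptch1 conditional heterozygotes (cHet, genotype label Ptch1(+/-), n = 2) were set against libraries from conditional knockouts (cKO, Ptch1(-/-), n = 2). Both groups received tamoxifen and carried the reporter, so the heterozygote is the reference and no Ptch1-intact group was used here. Which Cre line was used and whether animals were pooled are not given in the sources used here.

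The primary cilium is a microtubule-based projection that most mesenchymal cells build from the older centriole when they leave the cell cycle. IFT-B trains pulled by kinesin-2 carry cargo to the tip, IFT-A trains pulled by dynein-2 bring it back, the BBSome removes membrane receptors, and the transition zone at the base controls what enters. In vertebrates PTCH1 sits in the ciliary membrane, SMO accumulates there when PTCH1 is lost or bound by ligand, and GLI proteins are processed along the way, so that loss of IFT usually blunts hedgehog output downstream of PTCH1.

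Many ciliary genes are known to carry an X-box, the binding site of RFX transcription factors, near their start. Its pattern, GTNNCCN joined end to end with its reverse complement NGGNNAC (N, any base), reads the same on both strands. It was searched from 250 bases before to 50 bases after each start in RefSeq promoter windows (GRCm38.p6). The pattern was present for 9 of the 39 members with a window (23.1%), for 12 of 68 further cilium genes (17.6%) and for 583 of 27025 genes in all (2.16%). The shorter core GTTGCC, searched on both strands and contained in some of these sites, was present for 20 of 39 members (51.3%) and for 14.1% of all genes. The 9 member sites are shown because these promoters held the pattern at a higher share than all genes, although the members were picked by function and not by sequence. Each is written 5′ to 3′ on the gene's own strand, with the site in capitals.
Bbs1 (chr19:4906605-4906634, minus strand): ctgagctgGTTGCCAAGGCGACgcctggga
Bbs4 (chr9:59353464-59353493, minus strand): ctcagctgGTCGCCCGGGAAACggtcggct
Bbs7 (chr3:36613489-36613518, minus strand): gcgccccgGTTGCCTTGGAAACcggccagc
Ift57 (chr16:49699199-49699228, plus strand): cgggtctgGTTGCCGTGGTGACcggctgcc
Mks1 (chr11:87853161-87853214, plus strand): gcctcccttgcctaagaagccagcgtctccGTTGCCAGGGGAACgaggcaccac
Tctn1 (chr5:122264411-122264432, minus strand): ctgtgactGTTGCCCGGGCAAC
Tctn2 (chr5:124598657-124598730, plus strand): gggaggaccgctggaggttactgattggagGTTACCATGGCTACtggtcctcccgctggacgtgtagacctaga
Ttc26 (chr6:38381483-38381512, plus strand): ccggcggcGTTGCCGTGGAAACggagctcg
Wdr19 (chr5:65199632-65199695, plus strand): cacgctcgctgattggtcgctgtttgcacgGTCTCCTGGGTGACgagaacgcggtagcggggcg

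Of these sites, 6 began 24 to 121 bases before the RefSeq start of the promoter table and 3 began within the first 36 bases after it. The Ttc26 site, counted among the first, lies within an exon of the GENCODE annotation used for gene coordinates, whose start is farther upstream. The core GTTGCC lay inside 6 of the 9 sites, and the Tctn1 site held it on both strands. Genes with an X-box did not share a direction between genotypes: 5 had higher and 4 lower values in cKO (median log2 fold change 0.32). Their log2 fold changes ran from -1.73 (Ttc26) to 3.19 (Mks1, 0.26 without the library cHet_1). The 30 members with a window but no X-box were split as well, with 19 higher and 11 lower (median 0.34). Among the RFX factor genes themselves, Rfx1, Rfx2, Rfx3, Rfx5 and Rfx7 were detected in every library and Rfx4 was listed at 0 in all 4. The 2 with the lowest p were lower in both cKO libraries. Rfx3, a main activator of ciliary genes, stood at 784 and 1593 (cHet) against 421 and 162 (cKO), scaled counts with a log2 fold change of -2.08 (SE 1.30). Rfx5, which is best known for its part in MHC class II regulation, stood at 3299 and 6164 against 2613 and 2849 (-0.72, SE 0.45; -0.27 without cHet_1). In FPKM, a level per transcript length, the groups overlapped for Rfx3 and not for Rfx5. Neither passed the test described next (limma adjusted p = 0.913 for both). A match to a pattern is a description of the letters and does not show that a factor binds there.

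No cilium gene passed the adjusted test between the genotypes, in a design in which no gene of any kind did. Values are scaled counts, the authors' gene counts divided by a factor per library, and are given in the order cHet_0, cHet_1, cKO_0, cKO_1, the names of the columns. Differences are log2 fold changes, cKO minus cHet, of the scaled count plus 3, tested with limma across 14297 genes with Benjamini-Hochberg adjustment at 0.05. All 44 members passed the filter on low values (at least 10 in at least 2 libraries). Of the 44, 0 were called higher and 0 lower (0% of all genes tested were called, in either direction), and the lowest adjusted p among them was 0.913. At an unadjusted limma p under 0.05 there were 2 members, Ttc26 and Dync2h1, both lower in cKO (1.49% of all genes tested), and 0 were higher (1.54%); in either direction the share of all genes was 3.03%. Half-widths of the unadjusted 95% intervals had a median of 1.74 log2 units over the members. Most differences smaller than that could not be told from 0 even before adjustment. Larger ones did not pass after it either, as for Tmem67 at 3.54 (limma adjusted p = 0.913). With 2 libraries a group and nothing in the labels to say that they came from separate animals, these p-values measure the spread between libraries, which may be technical in part.

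By values alone, 28 of the 44 members (63.6%) were higher in cKO, against 56.3% of all genes tested, and their median log2 fold change was 0.32 against 0.12. Both cKO libraries lay above both cHet libraries for 9 members (20.5%), against 18% of all genes tested, and below them for 4 (9.09%), against 14.2%. Those 9 were Ift27, Ift46, Ift88, Ift172, Ift140, Bbs9, Tmem67, Tctn3 and Cep290, and the 4 were Ttc26, Wdr35, Dync2h1 and Bbs2. The shares lay near those of all genes, so that they are no result about cilium genes. The positive median rested on 1 library: without cHet_1 it was -0.012 against -0.050 for all genes, with 22 members higher and 22 lower, and 18 of the 44 changed sign. Without cHet_1 every member lay between -1.06 (Bbs2) and 0.78 (Tctn3). Summed over all members, the scaled counts of the cHet libraries (86809 and 81648) lay between those of the cKO libraries (93814 and 79073).

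**Figure D1:**
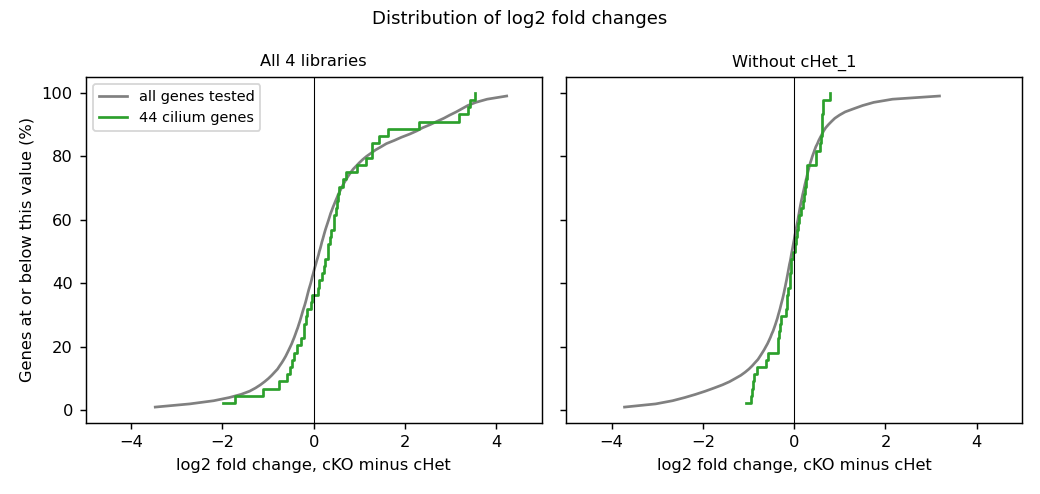
Cumulative share of genes (vertical axis, %) at or below each log2 fold change, cKO minus cHet (horizontal axis), for the 44 cilium genes (green steps) and the 1st to 99th percentile of all genes tested (grey), with all 4 libraries and without cHet_1. With all libraries the cilium median lay at 0.32 and that of all genes at 0.12; without cHet_1 they lay at -0.012 and -0.050.

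Library cHet_1 held the lowest value of 22 of the 44 members (50%; 44.5% of all genes tested) and the highest of 13 (29.7% of all genes tested). For 5 members, Dync2li1, Bbs1, Bbs9, Tmem67 and Mks1, its value was below 10% of that in each other library, as for 15.2% of all genes tested. None of the members was below that mark in any other library, against 0.399% of all genes tested for cHet_0, 1.62% for cKO_0 and 2.07% for cKO_1. In the same library the transport genes Ift52 and Ttc26 stood at 6232 and 5848, above the other 3 libraries. All 5 of the nearly missing members had positive log2 fold changes, from 1.29 to 3.54, and the median of the other 39 members was 0.21. Low detection in cHet_1 was not confined to cilium genes. Of the 14297 genes tested, 579 were at 0 in cHet_1, against 58 in cHet_0, 226 in cKO_0 and 223 in cKO_1. The source of this was not tested. In bulk samples, fewer cells of a type and less RNA per cell cannot be told apart. With cHet_1 as the only heterozygote library, 7 members were called, 6 of them higher (Dync2li1, Bbs9, Tmem67, Tctn2, Tctn3 and Mks1) and Ttc26 lower, beside 1139 genes in all, 7.42% of all genes tested higher and 0.546% lower; a lone library is there assumed to vary as the other genotype does. With cHet_0 as the only one, 0 members and 0 genes in all were called by limma, and 0 members and 217 genes had an unadjusted p under 0.05.

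**Figure D2:**
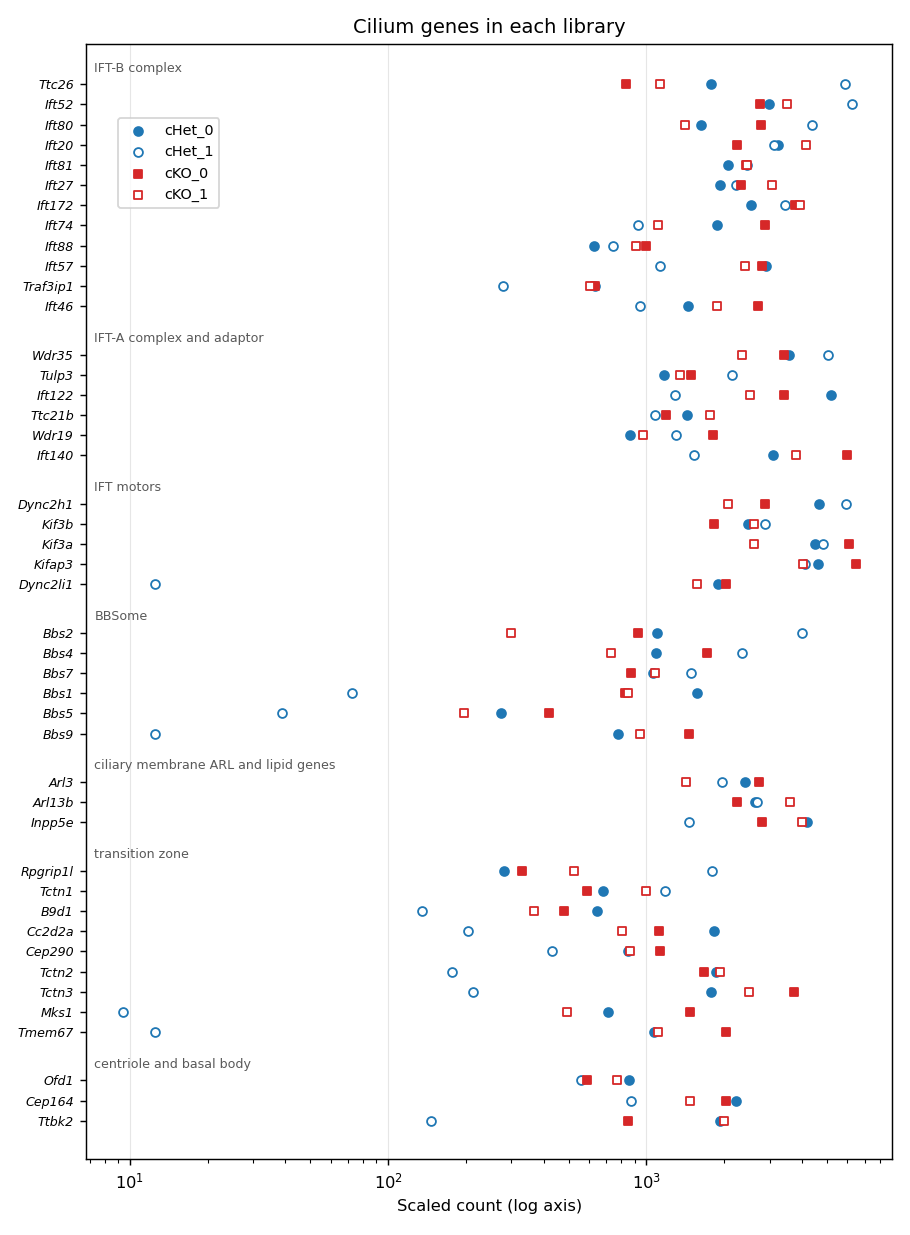
Scaled counts (log axis) of the 44 cilium genes, 1 row a gene, grouped by role; blue circles are cHet libraries and red squares cKO libraries, filled for library 0 and open for library 1. The open blue circles of Dync2li1, Bbs9, Tmem67 and Mks1 lie between 9.42 and 12.6, far to the left of the other 3 libraries.

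IFT-B, the anterograde train, had 12 members, of which 8 were higher and 4 lower in cKO (median log2 fold change 0.38; all genes tested 0.12). Ttc26, also known as Ift56, an IFT-B subunit needed for some ciliary cargo (chromosome 6, 38381469 to 38427647), stood at 1774 and 5848 (cHet) against 833 and 1129 (cKO). Both cKO libraries lay below both cHet libraries, but the cHet libraries differed from each other more than cHet_0 did from cKO_1. Its log2 fold change was -1.73 (SE 0.73, 95% interval -3.42 to -0.04; limma adjusted p = 0.913), and -0.87 without cHet_1. Its FPKM did not overlap either, at 6.27 and 7.6 against 2.87 and 1.59.

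The IFT-B members with higher values in cKO moved by less. Ift46, a peripheral IFT-B subunit (chromosome 9, 44767908 to 44793447), stood at 1449 and 943 against 2697 and 1879 (log2 fold change 0.94, SE 0.65; 0.63 without cHet_1). Ift27, a small GTPase subunit that links the train to BBSome traffic (chromosome 15, 78159463 to 78174107), stood at 1925 and 2231 against 2320 and 3068 (0.36, SE 0.50). Ift172, a large IFT-B subunit that is required for hedgehog signalling in mouse embryos (chromosome 5, 31253277 to 31291116), stood at 2533 and 3435 against 3772 and 3944 (0.39, SE 0.41; 0.17 without cHet_0 and 0.61 without cHet_1). For Ift27 and Ift172 the groups were apart in scaled counts and in FPKM, as was true of 5 members in all (11.4%), against 16.8% of all genes tested. Of these, Ift27, Ift172 and Tctn3 were higher (9.98% of all genes tested) and Ttc26 and Bbs2 lower (6.87%). Ift88, the gene of the Tg737 polycystic kidney mouse, was among the lowest of this group at 626 and 744 against 994 and 911 (0.48, SE 0.98). Ift81, which binds tubulin together with Ift74, varied least of all members in scaled counts, from 2075 to 2444, but not in FPKM, where it ran from 3.92 to 11.6. Ift20, which also serves at the Golgi, had the highest level per length of the 44 genes and stood at 3233 and 3110 against 2251 and 4140, so that the cKO libraries lay on both sides of the cHet pair (log2 fold change -0.05, 95% interval -1.14 to 1.03).

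Of the 6 IFT-A and adaptor genes, which serve retrograde transport and membrane protein entry, 4 were higher and 2 lower (median 0.19). Ift140 (chromosome 17, 25016085 to 25099495) stood at 3077 and 1530 (cHet) against 6003 and 3790 (cKO). Both cKO libraries were above both cHet libraries, with a log2 fold change of 1.14 (SE 0.51; limma adjusted p = 0.913) that was 0.63 without cHet_1. In FPKM the groups overlapped, at 7.33 and 2.74 against 14.4 and 6.79. Wdr35, also known as Ift121 (chromosome 12, 8973892 to 9028847), lay on the other side, at 3573 and 5033 against 3417 and 2339 (-0.58, SE 0.43). Ift122 was highest in cHet_0 and lowest in cHet_1, at 5166 and 1296, with cKO between them at 3401 and 2508. Tulp3, the adaptor that brings the hedgehog inhibitor Gpr161 into the cilium, stood at 1166 and 2152 against 1486 and 1346 (-0.16, SE 0.69).

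Among the motors, the kinesin-2 genes had smaller log2 fold changes over all 4 libraries than the dynein-2 genes. Kif3a stood at 4475 and 4830 against 6095 and 2609, Kif3b at 2465 and 2876 against 1823 and 2616, and the accessory subunit gene Kifap3 at 4613 and 4099 against 6465 and 4056. For all 3 the groups overlapped, with log2 fold changes of -0.22, -0.29 and 0.24. The 95% intervals were wide, at -1.30 to 0.86, -1.44 to 0.87 and -0.64 to 1.11. The dynein-2 heavy chain gene Dync2h1 (chromosome 9, 6928503 to 7184446), the motor of retrograde transport, stood at 4653 and 5940 (cHet) against 2884 and 2062 (cKO). Both cKO libraries were lower and the libraries of each genotype lay close together. Its log2 fold change was -1.11 (SE 0.41, 95% interval -2.06 to -0.15), with the lowest unadjusted limma p of the 44 genes (0.0280, adjusted p = 0.913). It was between -1.35 and -0.87 whichever single library was left out. In FPKM the groups overlapped, at 4.64 and 1.96 against 2.77 and 0.777. Its partner Dync2li1, the dynein-2 light intermediate chain gene (chromosome 17, 84626496 to 84655588), stood at 1897 and 12.6 against 2039 and 1564. Its log2 fold change of 3.38 (SE 2.12) was -0.087 without cHet_1, so that 1 library decided it.

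**Figure D3:**
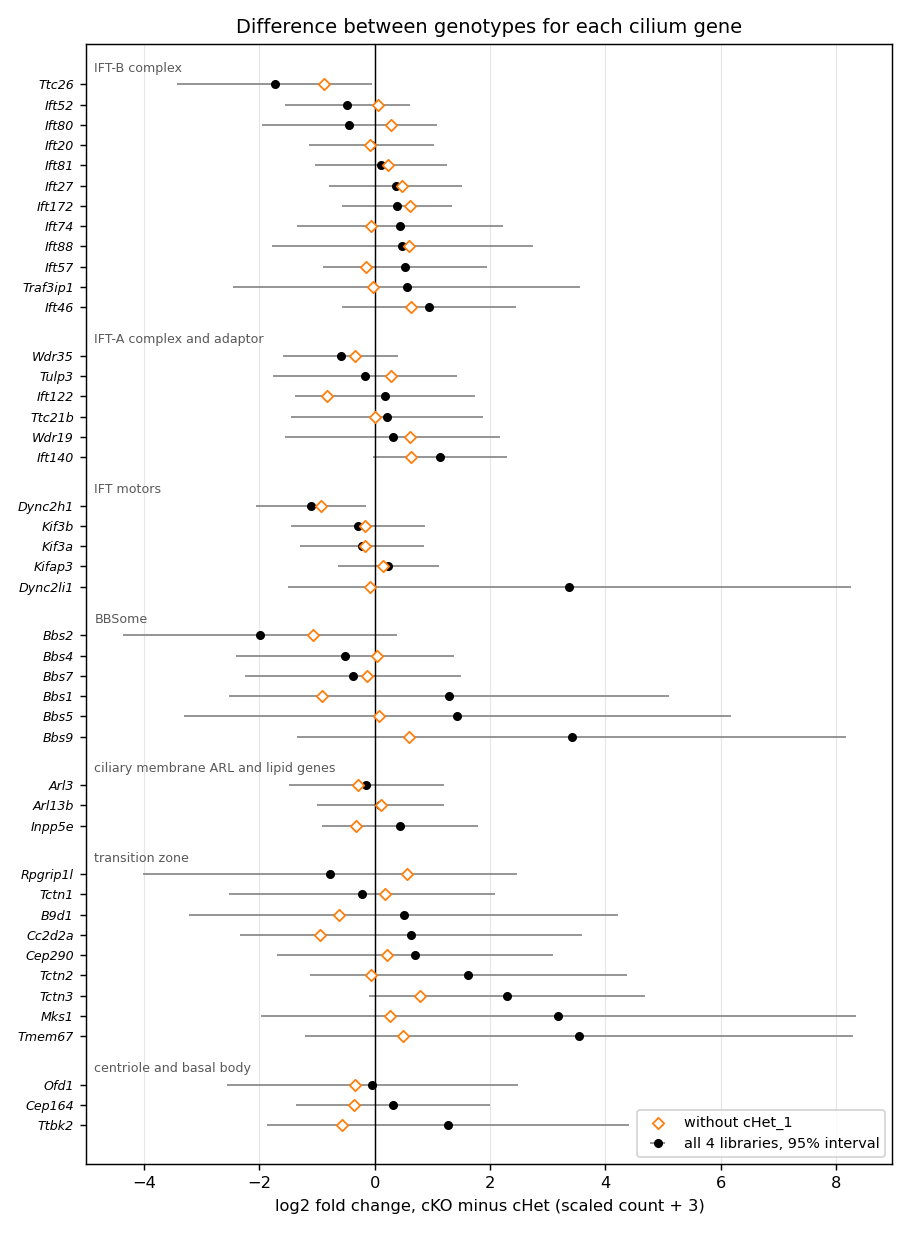
Log2 fold change, cKO minus cHet, of each cilium gene (horizontal axis), by role; black points and grey bars are limma estimates with 95% intervals from all 4 libraries, and open orange diamonds are estimates without cHet_1. The intervals of Ttc26 and Dync2h1 alone leave out 0 before adjustment, and the large positive values of Tmem67, Bbs9, Dync2li1 and Mks1 lie between -0.087 and 0.59 without cHet_1.

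The BBSome, a protein coat that carries receptors such as Smo and Gpr161 out of the cilium, had 6 members here, 3 higher and 3 lower. Bbs2 (chromosome 8, 94067954 to 94098928) stood at 1104 and 4005 (cHet) against 931 and 298 (cKO), with no overlap in scaled counts or in FPKM (5.47 and 12.97 against 4.61 and 0.9996). The nearest pair, cHet_0 and cKO_0, differed by less than the libraries within either group, and the log2 fold change of -1.99 (SE 1.03; limma adjusted p = 0.913) was -1.06 without cHet_1. Bbs9 stood at 779 and 12.6 against 1466 and 942 (3.42, SE 2.07; 0.59 without cHet_1). Bbs4, whose mean FPKM of 6.04 was not distinguishable from that of Bbs2 (6.01), stood at 1088 and 2338 against 1719 and 727, with overlapping groups. Bbs1 and Bbs5 were nearly missing or lowest in cHet_1, at 72.2 and 38.7, against 1577 and 273 in cHet_0, and Bbs7 stood at 1065 and 1485 against 872 and 1077.

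The 3 ciliary membrane genes overlapped between the groups. Arl13b, the GTPase that defines the ciliary membrane and is needed for normal hedgehog output, stood at 2629 and 2674 against 2247 and 3600 (log2 fold change 0.10, 95% interval -0.998 to 1.20). Arl3, which releases lipid-modified cargo inside the cilium, stood at 2415 and 1970 against 2728 and 1424 (-0.15, SE 0.58). Inpp5e, the phosphatase that keeps the ciliary membrane poor in the lipid that recruits Tulp3, stood at 4166 and 1460 against 2809 and 3991 (0.44, SE 0.59). Its exons overlap those of Pmpca on the opposite strand, and with the strand setting of the counting not given in the sources used here, reads of the 2 genes may be mixed.

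In the transition zone group, cHet_1 stood lowest for 7 of 9 members. Its summed scaled count was 9701 in cHet_0, 4150 in cHet_1, 12561 in cKO_0 and 9570 in cKO_1. Tctn3, a tectonic (chromosome 19, 40596446 to 40612233), stood at 1773 and 212 against 3731 and 2488, with cKO above cHet in scaled counts and in FPKM (9.57 and 0.784 against 20.2 and 9.80). Its log2 fold change was 2.30 (SE 1.04; limma adjusted p = 0.913), and 0.78 without cHet_1, the highest value of any member there. Tmem67, the Meckelin receptor-like gene (chromosome 4, 12039355 to 12090020), stood at 1071 and 12.6 against 2039 and 1105, and Mks1 at 711 and 9.42 against 1478 and 494. For Tmem67 the cHet_0 and cKO_1 values nearly met, and its log2 fold change of 3.54 was 0.49 without cHet_1.

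The other transition zone genes showed no common order of libraries. Tctn2 stood at 1867 and 177 against 1663 and 1920, Cc2d2a at 1831 and 204 against 1117 and 808, and B9d1 at 642 and 135 against 479 and 368. Cep290, the long coiled-coil protein that bridges membrane and microtubules, stood at 848 and 431 against 1132 and 862. Rpgrip1l went the other way, highest in cHet_1, at 282 and 1787 against 330 and 527, and Tctn1 stood at 676 and 1182 against 590 and 999. The groups overlapped for 6 of the 9, and were apart for Tctn3, Tmem67 and Cep290 (33.3%, against 32.2% of all genes tested).

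For the 3 genes of the mother centriole and basal body the groups overlapped, and cHet_1 was the lowest library for each. Cep164, the distal appendage protein that starts docking, stood at 2214 and 872 against 2032 and 1474 (0.32, SE 0.73). Ttbk2, the kinase it recruits to begin axoneme growth, stood at 1923 and 147 against 848 and 1988 (1.28, SE 1.36; -0.57 without cHet_1). Ofd1, an X-linked centriolar satellite and distal centriole gene, stood at 858 and 560 against 590 and 772 (-0.04, SE 1.10). Among all members, 9 share exon bases with another annotated gene, 8 of them with one on the opposite strand.

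Levels can be compared between genes only per length, in FPKM. The highest means over the 4 libraries were those of Ift20 (62.5), Arl3 (41.4), Ift27 (39.3) and Ift52 (18.6), and the lowest those of Rpgrip1l (0.644), Cep290 (0.971) and Ttbk2 (1.13). The median member stood at 6.02, against 7.27 for all genes tested, but the order depended on the library. The medians of members and of all genes tested were 6.14 and 9.04 in cHet_0 and 2.53 and 4.32 in cHet_1. In cKO_0 they were 9.09 and 8.86, and in cKO_1 2.87 and 5.15. For Ift20 and Arl3, and for Arl3 and Ift27, the library ranges overlapped, so the order among the first 3 is not fixed. At an FPKM of at least 1 there were 43 members in cHet_0, 30 in cHet_1, 43 in cKO_0 and 37 in cKO_1. Of the 14297 genes tested, 12189, 9802, 12084 and 11212 reached that level in the same order of libraries.

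The deposited tables ranked the libraries differently. In FPKM, cHet_1 and cKO_1 were both below cHet_0 and cKO_0 for 32 of 44 members (72.7%; 54% of all genes tested), whereas in scaled counts this held for 12 (27.3%; 23% of all genes tested). Kif3a had similar scaled counts in the cHet libraries, 4475 and 4830, but FPKM values of 12.2 and 3.69. Relative to cHet_0, the scaled count that corresponded to an FPKM of 1 was a median 2.003 times as large in cHet_1, 1.86 times in cKO_1 and 1.02 times in cKO_0 over the 44 members. The ratio ranged in cHet_1 from 0.999 for Tctn1 to 4.88 for Cep290 and in cKO_1 from 0.984 for Ift27 to 3.99 for Cep290. It followed the base composition of the gene: across the 44 members, which share these libraries, Spearman's rho with the GC content of the longest annotated transcript was -0.85 in cHet_1, -0.84 in cKO_1 and, over a far narrower range of ratios, -0.88 in cKO_0. With transcript length rho was 0.24 in cHet_1, 0.25 in cKO_1 and 0.16 in cKO_0. GC content ran from 38.7% in Cep290 to 57.7% in Cep164. A given scaled count of an AT-rich cilium gene thus stood for a lower FPKM in 1 library of each genotype. The sources used here do not say how the authors computed FPKM, and the source of the difference was not tested.

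**Figure D4:**
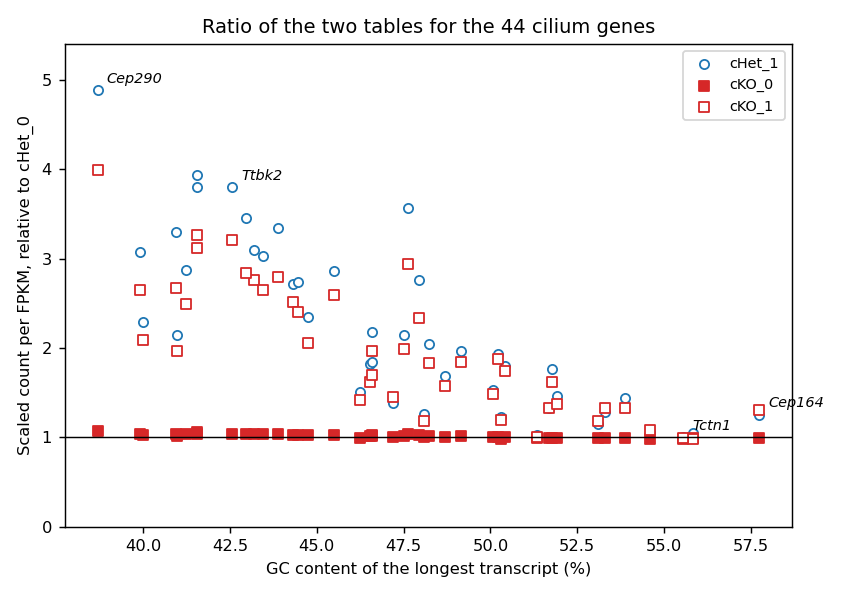
Scaled count per FPKM of each cilium gene, divided by the same ratio in cHet_0 (vertical axis), against the GC content of its longest transcript (horizontal axis, %), for cHet_1 (open circles), cKO_0 (filled squares) and cKO_1 (open squares); the line marks 1. The ratios of cKO_0 stay between 0.978 and 1.07, while those of cHet_1 and cKO_1 climb from about 1 in GC-rich genes to 4.88 and 3.99 in Cep290.

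A wider set of 78 cilium genes from the same pathway gave 0 called in either direction among the 74 tested, with 42 higher and 32 lower in cKO (56.8%, against 56.3% of all genes tested) and a median of 0.10. That median turned to -0.13 without cHet_1, to -0.022 without cKO_0 and to -0.0087 with median-of-ratios scaling. Further transport and BBSome genes were split 8 to 8 (median 0.03). In that list Bbs12, a chaperonin-like BBSome assembly gene, stood at 566 and 1135 against 166 and 138, and Hspb11, which encodes Ift25, the partner of Ift27, at 288 and 1.05 against 391 and 531. Of 15 further transition zone genes, 12 were higher (median 0.52), but 7 of 15 without cHet_1 (median -0.062), with Nphp4 at 529 and 13.6 against 1436 and 640. Tmem237, listed as Als2cr4, stood at 2346 and 2327 against 1364 and 967, lower in both cKO libraries (log2 fold change -1.02, SE 0.63). Of 21 further centriole and basal body genes, 9 were higher and 12 lower (median -0.18). Without cHet_1, 4 of the 21 were higher (median -0.30), against 46.2% of all genes tested. The median was -0.51 without cKO_0 and -0.044 without cKO_1. Fbf1 stood at 4244 and 4828 against 3476 and 2313 and Cep83, listed as Ccdc41, at 1327 and 2813 against 1091 and 1068.

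Ciliary membrane traffic and receptor genes were higher in 12 of 17 (median 0.25), and in 9 of 17 without cHet_1 (median 0.014). Smo, the hedgehog transducer that enters the cilium when Ptch1 is absent, stood at 21410 and 13147 (cHet) against 23138 and 30204 (cKO), apart in scaled counts and in FPKM (log2 fold change 0.66, SE 0.30; limma adjusted p = 0.913), and 0.30 without cHet_1. Evc, which holds Smo signalling at the ciliary base, stood at 4168 and 256 against 8475 and 4840 (2.62, SE 1.12; 0.62 without cHet_1), the one gene of the wider set with an unadjusted limma p under 0.05 (0.0469). Against these, the hedgehog readouts stood at 12867 and 5438 against 22420 and 23341 for Ptch1, at 4132 and 3350 against 6388 and 6955 for Gli1, and at 62357 and 60651 against 175453 and 160516 for Hhip. All 3 were higher in both cKO libraries, against 18% of all genes tested, with log2 fold changes of 1.45, 0.84 and 1.45. The unadjusted limma p was 0.0060 for Ptch1, 0.0387 for Gli1 and 0.00027 for Hhip. Of all genes tested, 1.54% were higher with such a p under 0.05. The limma adjusted p was 0.913 for each of the 3. Without cHet_1 the value was 0.83 for Ptch1, 0.69 for Gli1 and 1.43 for Hhip. In FPKM the groups were apart for Ptch1 and Gli1 and overlapped for Hhip. The Ptch1 value covers the whole gene and does not show whether an exon was deleted. No test compared the size of these differences with those of the cilium genes.

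Cilia are taken down when cells re-enter the cycle, so genes of both processes are given as values. Of 9 cilium disassembly genes, 3 were higher and 6 lower in cKO and 0 were called. The centriolar kinesin gene Kif24 stood at 551 and 1155 against 199 and 220, and Kif2a at 887 and 1717 against 1361 and 263. Of 12 proliferation genes 8 were higher and 4 lower and 0 were called. Cdk1 stood at 1926 and 23.0 against 2977 and 3210, and Bub1 at 2041 and 2844 against 1099 and 1097. Summed over that list, scaled counts stood at 54264 and 44765 against 61694 and 46731, with cHet_0 between the cKO libraries. Of 17 motile cilium genes, 10 passed the filter on low values, and the sums over the list were 2174 and 1323 against 1796 and 2178. Rsph9, a radial spoke gene named here after its values were seen, was the most abundant per length, with FPKM values of 6.04 and 6.89 against 7.11 and 7.80. The motile cilium regulator Foxj1 stood at 99.6 and 541 against 2.15 and 4.54, lower in both cKO libraries (limma adjusted p = 0.913), and Ccdc40 at 133 and 2.09 against 243 and 213.

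All 8 dental follicle markers were present in every library, with Pthlh at 9253 and 15879 against 12267 and 8613 and Pdgfra at 28010 and 31768 against 27387 and 17776. Of the 8, 7 were lower in cKO, against 6250 of all 14297 genes tested, and 0 were called. For 5 of the 8 (Postn, Col1a1, Pdgfra, Dcn and Lum) cKO was lower without overlap (62.5%, against 14.2% of all genes tested). In FPKM the groups overlapped for Pdgfra and Lum. The sum of the 8 markers was 4068650 and 3882070 (cHet) against 2373340 and 2323450 (cKO), most of it Col1a1. Of 5 odontoblast and osteoblast markers, Dspp, Bglap and Phex were lower in both cKO libraries (60%, against 14.2% of all genes tested). Ibsp and Sp7 overlapped, and the sums were 137758 and 269985 against 158230 and 142521. Dspp, the dentin matrix gene, stood at 27937 and 69633 against 229.5 and 9251. Markers of other cells were present too. The sum of 7 dental epithelium markers was 569634 and 1475040 (cHet) against 966313 and 2705040 (cKO), that of 5 Schwann cell markers 2100 and 519 against 5380 and 16720, that of 5 endothelial markers 2184 and 4132 against 2827 and 6341, and that of 5 leukocyte markers 904 and 6167 against 1106 and 9882. The sums of 4 pericyte and smooth muscle markers were 64714 and 57442 against 62749 and 77915. A few genes carried these sums and others in the same lists went the other way. In cHet_1 the endothelial sum was nearly all Kdr (4054) while Tek was at 2.09, against 239.7 in cHet_0. The leukocyte sum there was mostly Lyz2 (4385) and Cd68 (1771), while Csf1r was at 8.37, against 227.5 in cHet_0. The epithelial sums were led by the enamel genes Amelx and Ambn, while Epcam stood at 4828 and 2448 against 620.6 and 1002. The largest positive log2 fold changes of these 2 lists were those of Pecam1, at 0 and 5.23 against 299.5 and 1278, and Ptprc, at 0.810 and 0 against 62.5 and 76.0. Cdh5 and Cd52 were also higher in cKO without overlap. That made 2 of 4 endothelial markers tested (50%) and 2 of 5 leukocyte markers (40%), against 18% of all genes tested. The groups overlapped for Kdr, Tek, Emcn, Cd68, Csf1r and Lyz2, with negative log2 fold changes for Kdr (-0.17) and Cd68 (-0.86). The part of these cells in the values of the cilium genes was not tested.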

How the data were processed

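RNA of sorted tdTomato-positive dental follicle cells was measured in 4 libraries, 2 cHet and 2 cKO; per the labels' protocols it was isolated with a PicoPure kit, amplified with a SMART-Seq v4 kit and made into Nextera XT libraries. The submitters' processing notes name the mm10 build and, without their roles, DESeq2, HTSeq, Cuffdiff, Cufflinks, Bowtie2 (2.2.1), TopHat2 (2.0.13) and FastQC. The main values are the deposited scaled counts (signal), in which the authors had put each library's gene counts on one scale; library totals were 69361760 to 71228342. FPKM values, deposited by the authors per transcript length and library size, served as an alternative. No label matches 16 further columns in 4 tables, which were left out. Because column names start at 0 and titles at 1, each column was tied to its genotype only.

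A limma model (3.58.1, R 4.3.3) of log2(scaled count + 3) had genotype as its only term and let the variance follow the mean. Its code was checked on simulated data with independent noise, which does not measure error rates in these libraries. Fold changes on this scale understate those of low genes. Alternatives changed the pseudocount, filter, scaling, table, weights, trend, block and libraries. Coordinates, exon overlaps and GC content are from GENCODE vM21 (mm10). Of 202 list entries, 190 matched by symbol and 12 by a RefSeq synonym. The rule named, per role group, the 2 members with the lowest p, the most abundant per length and any with groups apart in both tables, and in the other lists the 2 with the lowest p; the remaining members were named after their values were seen. Members and lists were chosen with earlier results of these data known.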

Additional observations from a re-analysis of the deposited data

How the results depend on the processing

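With all 4 libraries, 0 members were called under every alternative run (43 members could be tested in FPKM, 44 otherwise). Over all genes limma called 2 with log2(FPKM + 0.1) and 7 with log2(FPKM + 1), and in FPKM 3 members were higher in cKO without overlap (6.82%, against 11.5% of all genes), where scaled counts gave 9. Median-of-ratios scaling lowered the median of all genes by 0.10 and left the members 0.19 above it, against 0.20 in the main fit; Arl13b became -0.0033 there, and Ofd1 0.031 with log2(FPKM + 0.1). Leaving out 1 library gave 0 to 1139 called genes, 0 to 7 called members (0% to 15.9%; all genes 0% to 7.97%), 13 to 25 members apart and higher (29.5% to 56.8%; all genes 27.7% to 46.7%), 9 to 13 apart and lower (20.5% to 29.5%; all genes 26.8% to 32.8%), a member median of -0.012 to 0.39 and a median of -0.13 to 0.14 for the wider set; the highest counts of calls came without cHet_0, the lowest medians without cHet_1, and 12 and 42 genes were called without cKO_0 and cKO_1. A group of 1 library is assumed there to vary as the other does. With the number in the column name as a replicate block, limma called 0 genes and 0 members, with an unadjusted p under 0.05 for 606 genes against 433 and a member median of 0.32. In log2 scaled counts, same-numbered libraries hardly deviated together (r = 0.05 across genes). In FPKM they shared a shift: cHet_1 and cKO_1 were both below cHet_0 and cKO_0 for 54% of all genes tested and 72.7% of members. Nothing in the labels says that the numbers pair samples. A count test was not run. The scaled counts had been divided by a factor per library and were not turned back into whole reads. The raw counts stand in columns that no label matches.

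For the genes below the sign of the log2 fold change turned when 1 library was left out. In IFT-B the range was -0.49 to 0.38 for Ift20, -1.005 to 0.061 for Ift52, -0.16 to 1.20 for Ift57, -0.25 to 1.13 for Ift74, -1.15 to 0.28 for Ift80, -0.0037 to 0.23 for Ift81 and -0.032 to 1.14 for Traf3ip1. In IFT-A it was -0.82 to 1.17 for Ift122, -0.13 to 0.77 for Wdr19, -0.065 to 0.49 for Ttc21b and -0.60 to 0.28 for Tulp3. Among motors and the BBSome it was -0.83 to 0.39 for Kif3a, -0.10 to 0.57 for Kifap3, -0.087 to 6.85 for Dync2li1, -0.91 to 3.48 for Bbs1 and -1.13 to 0.11 for Bbs4. Among membrane, centriole and disassembly genes it was -0.32 to 1.20 for Inpp5e, -0.61 to 0.32 for Arl3, -0.24 to 0.44 for Arl13b, -0.57 to 3.12 for Ttbk2, -0.35 to 0.99 for Cep164, -0.34 to 0.27 for Ofd1 and -2.22 to 0.14 for Kif2a. In the transition zone it was -0.62 to 0.18 for Tctn1, -0.063 to 3.32 for Tctn2, -0.94 to 2.203 for Cc2d2a, -0.61 to 1.62 for B9d1 and -2.09 to 0.56 for Rpgrip1l. The scaled totals make counting error small for most members; the spread between libraries sets the precision, and the number of molecules behind reads of amplified cDNA is not known.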

Other observations

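The relation of the 2 deposited tables to base composition was not particular to cilium genes. Over 12135 tested genes with a value in all 4 libraries of both tables and an annotated transcript, Spearman's rho between the scaled count per FPKM, relative to cHet_0, and GC content was -0.87 in cHet_1 and -0.86 in cKO_1, with median ratios of 1.75 and 1.63. In cKO_0 rho was -0.84 with a median ratio of 1.004. For the scaled counts themselves, rho with GC content was -0.05 for the log2 difference of cHet_1 and cHet_0 and 0.11 for that of cKO_1 and cKO_0 over 12882 genes, and -0.28 and 0.042 over the 44 members. For the log2 fold change, cKO minus cHet, it was 0.25 over the members (-0.021 without cHet_1) and 0.11 over all genes (0.11 without cHet_1).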
